A study of Mus musculus with 9 samples.

Results

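The 45 genes described here encode the machinery that copies nuclear DNA and part of the supply of its building blocks. They were listed by symbol with earlier results of these data known, so the counts below describe the list and do not test it. They fall into 9 roles: origin recognition and licensing, the MCM helicase, helicase activation, DNA polymerases and primase, the sliding clamp with its loader, single-strand binding, flap removal and ligation, nucleotide supply, and the regulator E2f1. All 45 had a probe on the array, among 19057 genes with a probe of a single symbol. A total of 43 passed the filter on detection and were tested, among 10800 genes tested, and Pola1 and Pole2, which encode DNA polymerase subunits, had no probe that passed. Transcripts were measured on Illumina bead arrays in 3 groups of 3 samples of mouse cells: undifferentiated embryonic stem cells named TBV2 (mES), purified cardiomyocytes from hearts of 1 day old neonatal mice (CMp), and purified left ventricular cardiomyocytes from 2 month old adults (CMa). The labels give no strain or genotype, describe the cells as cultured and untreated, and call the samples biological triplicates without naming animals or cultures. The p-values below therefore measure only the spread between these samples. CMp and CMa differ in heart region as well as in age.

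Chromosomal replication begins when the origin recognition complex, Cdc6 and Cdt1 load the MCM ring onto DNA before S phase. The kinase Cdc7 and the factors Cdc45, GINS and Mcm10 then turn the ring into a running helicase, and polymerases alpha, delta and epsilon copy the strands behind it. Ribonucleotide reductase, thymidylate synthase and thymidine kinase feed deoxynucleotides into the process, and many of these genes are known targets of E2F transcription factors. Embryonic stem cells cycle rapidly, whereas cardiomyocytes stop dividing soon after birth in the mouse.

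The arrays had median signals of 88.7 to 112.2 and 13781 to 17946 detected probes (detection p under 0.01), with the fewest on the CMa arrays. Levels are given as log2 of the background-corrected, quantile-normalized intensity. The lowest level of a detected probe was 4.89 to 5.09 on the mES and CMp arrays and 5.31 to 5.64 on the CMa arrays. The 9 tested of 10 cardiomyocyte markers had summed linear intensities of 154 to 204 in mES, 163932 to 173864 in CMp and 153600 to 201186 in CMa, and all 9 were detected on every CMp and CMa array. The 8 pluripotency markers summed to 63960 to 70723 in mES, 59.4 to 103 in CMp and 65.1 to 85.4 in CMa, with Pou5f1, Nanog and Sox2 undetected in both cardiomyocyte groups. Markers of other heart cells were present in the purified cells, more so in CMp. The 7 tested fibroblast markers summed to 32.0 to 41.4 in mES, 17238 to 22591 in CMp and 4459 to 5743 in CMa. The 7 endothelial markers summed to 1135 to 1510 in mES, 18569 to 33122 in CMp and 9809 to 13689 in CMa, and the 6 smooth muscle markers to 1642 to 3092 in mES, 30039 to 31271 in CMp and 6034 to 6719 in CMa. All 7 fibroblast markers were undetected in mES. The 5 leukocyte markers, undetected in mES, summed to 25.8 to 39.3 in mES, 650 to 1086 in CMp and 172 to 430 in CMa, and the 5 erythroid markers to 30.0 to 48.2 in mES, 92048 to 102226 in CMp and 8648 to 17124 in CMa. Of these lists, 7 of 7 fibroblast, 6 of 7 endothelial, 2 of 6 smooth muscle, 4 of 5 leukocyte and 5 of 5 erythroid markers were lower in CMa than in CMp. Their part in the results below was not tested, and in whole-sample RNA fewer cells of a type and less RNA per cell cannot be told apart.

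All 43 tested replication genes were lower in CMp than in mES, and all 43 were lower in CMa than in mES. Between the cardiomyocyte groups, 30 were lower in CMa than in CMp, 1 was higher (Dut, the enzyme that removes dUTP) and 12 were not called. Below, CMp against mES is called the first step and CMa against CMp the second. Calls are limma tests with a Benjamini-Hochberg adjusted p under 0.05 over all genes. Of all genes tested, 38.8% were lower and 35.4% higher in CMp than in mES, 40.1% were lower and 36.7% higher in CMa than in mES, 25.8% were lower in CMa than in CMp, and 26.3% were higher in CMa than in CMp. The median change of the 43 genes was -2.25 log2 units for CMp against mES (range -4.41 to -0.64), -3.62 for CMa against mES (-7.09 to -0.78) and -1.28 for CMa against CMp (-3.52 to 0.90), beside medians over all genes of -0.09, -0.07 and 0.01. The median level of the 43 genes was 10.28, 10.36 and 10.26 on the mES arrays, 7.66, 7.84 and 7.80 on the CMp arrays and 6.25, 5.97 and 5.71 on the CMa arrays, with no overlap between groups. Singly, the 3 CMp values lay below the 3 mES values for 43 genes (40.8% of all genes), the CMa values lay below mES for 42 (41.8%) and the CMa values lay below CMp for 27 (27.3%).

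**Figure D1:**
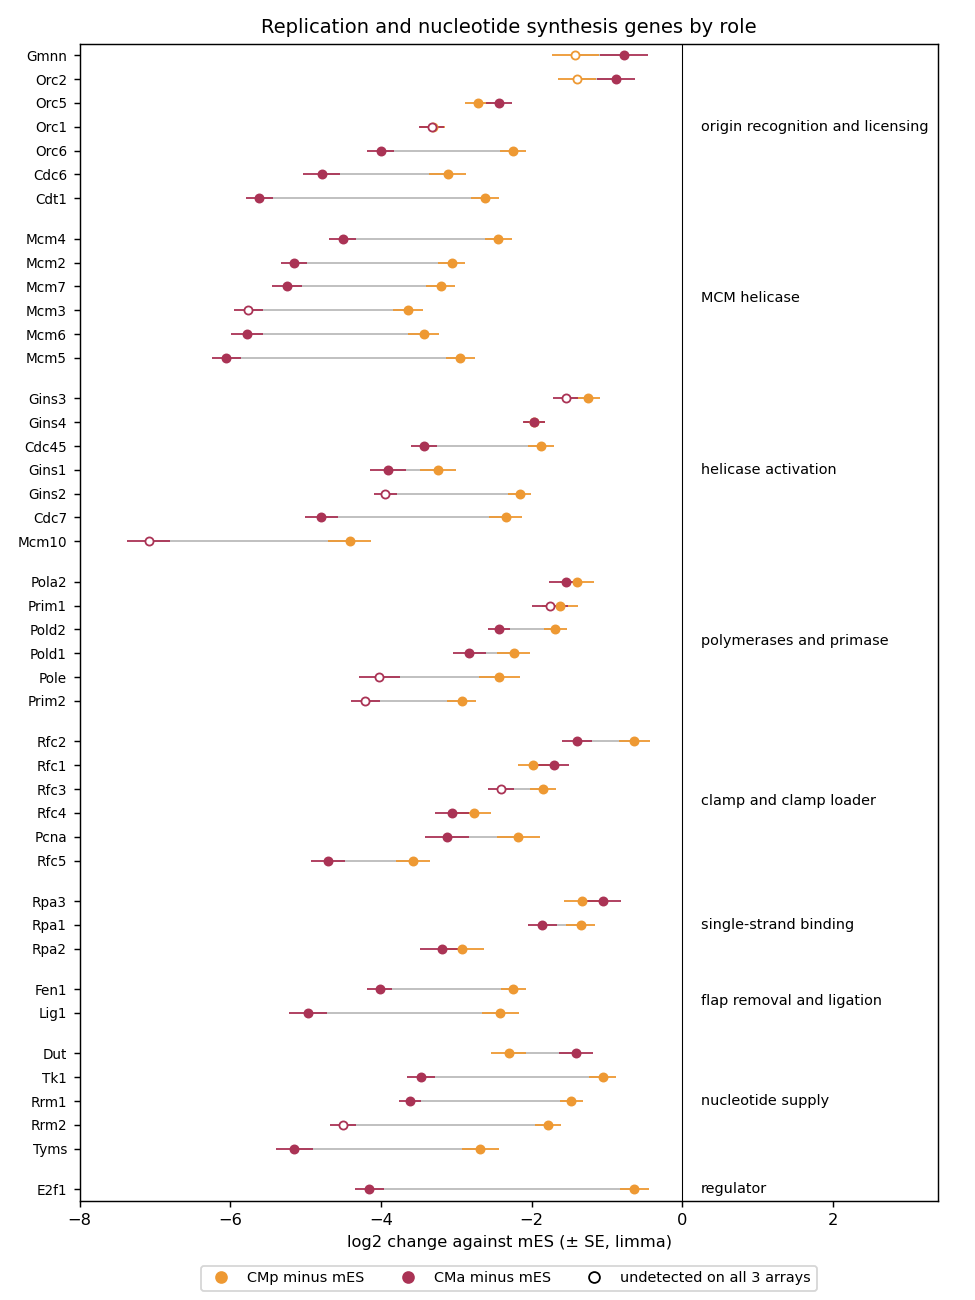
Log2 change against mES (± SE from limma, horizontal axis) of each of the 43 tested genes in CMp and in CMa, grouped by role down the page, with open symbols where the probe was undetected on all 3 arrays of the cardiomyocyte group. Every point lies left of 0, the MCM genes lie between -2.44 and -3.64 in CMp and between -4.51 and -6.05 in CMa, and E2f1 has the widest gap between its points.

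Many of the genes reached the limit of detection in the cardiomyocyte groups. All 43 genes were detected on every mES array, 38 on every CMp array and 23 on every CMa array. Orc1, Orc2 and Gmnn were undetected on all 3 CMp arrays, and 10 genes were undetected on all 3 CMa arrays (Orc1, Mcm3, Mcm10, Gins2, Gins3, Prim1, Prim2, Pole, Rfc3 and Rrm2). A change against such a group is a bound and is written as at least N-fold. With bounds in place of fitted values the median for CMa was -3.43 against mES and -0.95 against CMp. The fitted value was kept where no bound could be given. A further 10 genes were detected on only 1 or 2 CMa arrays (Orc2, Cdc6, Cdt1, Gmnn, Mcm7, Cdc7, Cdc45, Gins1, Lig1 and E2f1). The CMa changes of these 10 are fitted values and rest in part on values below detection. The filter itself favoured genes high in mES, since 5 of the 43 passed only because of their mES arrays. Among genes detected on all 6 arrays of a comparison, 38 of 38 were lower in CMp than in mES, beside 39.7% of 7414 genes overall. Under the same condition 23 of 23 were lower in CMa than in mES, beside 37.2% of 6622, and 15 of 23 were lower in CMa than in CMp, beside 23.5% of 7370.

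The 6 subunits of the MCM ring, the replicative helicase, all fell at both steps. Their median change was -3.14 log2 units in CMp against mES, -5.50 in CMa against mES and -2.11 in CMa against CMp, and groups did not overlap for any of them in any comparison. Mcm5 had levels of 12.58, 12.71 and 12.64 in mES, 9.37, 9.88 and 9.85 in CMp and 6.34, 6.87 and 6.56 in CMa. The 3 groups stood well apart, with CMa about as far below CMp as CMp was below mES. The change was -2.95 ± 0.19, 7.71-fold lower, adjusted p = 1.78e-07 for CMp against mES, -6.05 ± 0.19, 66.4-fold lower, adjusted p = 6.57e-10 for CMa against mES and -3.11 ± 0.19, 8.61-fold lower, adjusted p = 5.77e-07 for CMa against CMp (log2 ± SE, limma). Mcm4, with the smallest fall of the ring against mES, had levels of 12.94, 12.88 and 13.03 in mES, 10.26, 10.67 and 10.60 in CMp and 8.16, 8.70 and 8.47 in CMa. Its groups did not overlap. It was 5.43-fold lower in CMp than in mES, 22.8-fold lower in CMa than in mES and 4.2-fold lower in CMa than in CMp. The other 2 kept Mcm4 probes changed by -0.21 and -0.15 in CMa against CMp, and neither was called. In CMa against mES, Mcm2 was 35.6-fold lower, Mcm6 55.1-fold lower and Mcm7 37.9-fold lower, and Mcm3, undetected on all 3 CMa arrays, at least 28-fold lower.

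Promoter windows were available for 37 of the 45 genes (44 windows from RefSeq, GRCm38.p6, 250 bases before to 50 after an annotated start). They were searched on both strands for 4 words of the E2F consensus, TTTGGCGC, TTTCCCGC, TTTCGCGC and TTTGCCGC, because many replication genes are known E2F targets. A word was found in 13 of the 44 windows (29.5%), beside 744 of 32851 windows of all genes (2.26%). The 13 genes were Cdc6, Cdt1, Gins3, Lig1, Mcm3, Mcm5, Mcm6, Mcm7, Orc1, Pola1, Pold1, Pole2 and Rfc3. The windows of 4 MCM genes follow, 5′ to 3′ on the strand of the gene with E2F words in capitals. Then comes that of Dut, the gene that was higher in CMa than in CMp, which holds none. The Dut window lies wholly within the gene, which starts at base 125247248. The sequence before that base was not searched. The window of Mcm2, also of the ring, and a second window of Mcm7 hold none either, and Mcm4 had no window. The windows of Mcm10, which had the largest fall in CMa against mES, and of Rrm1, Tk1 and Tyms also hold none.
Mcm3 promoter, chr1:20820263-20820562 (minus strand): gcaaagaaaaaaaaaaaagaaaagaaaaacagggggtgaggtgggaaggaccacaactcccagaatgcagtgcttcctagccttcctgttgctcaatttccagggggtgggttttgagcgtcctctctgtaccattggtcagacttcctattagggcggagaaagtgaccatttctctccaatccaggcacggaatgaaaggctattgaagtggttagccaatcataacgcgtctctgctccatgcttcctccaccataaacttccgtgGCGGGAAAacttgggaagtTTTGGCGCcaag
Mcm5 promoter, chr8:75109259-75109558 (plus strand): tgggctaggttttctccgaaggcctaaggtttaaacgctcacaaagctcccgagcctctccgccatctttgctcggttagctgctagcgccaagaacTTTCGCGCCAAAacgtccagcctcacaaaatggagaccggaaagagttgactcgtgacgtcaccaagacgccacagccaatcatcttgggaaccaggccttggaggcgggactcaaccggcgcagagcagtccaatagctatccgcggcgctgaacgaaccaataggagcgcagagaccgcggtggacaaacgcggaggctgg
Mcm6 promoter, chr1:128359656-128359955 (minus strand): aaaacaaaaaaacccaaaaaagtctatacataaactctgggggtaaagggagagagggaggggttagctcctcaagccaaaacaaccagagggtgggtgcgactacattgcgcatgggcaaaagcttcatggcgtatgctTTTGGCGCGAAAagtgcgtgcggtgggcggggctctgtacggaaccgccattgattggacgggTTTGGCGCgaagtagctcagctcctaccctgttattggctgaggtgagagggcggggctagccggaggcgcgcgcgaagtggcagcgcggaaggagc
Mcm7 promoter, chr5:138171834-138172133 (minus strand): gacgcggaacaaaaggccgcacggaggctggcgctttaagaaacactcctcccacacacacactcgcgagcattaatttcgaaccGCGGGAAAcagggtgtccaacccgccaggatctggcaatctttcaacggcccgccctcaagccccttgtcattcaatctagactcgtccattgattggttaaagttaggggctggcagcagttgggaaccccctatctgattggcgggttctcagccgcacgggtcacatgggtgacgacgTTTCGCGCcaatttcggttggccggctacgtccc
Dut promoter, chr2:125247265-125247564 (plus strand): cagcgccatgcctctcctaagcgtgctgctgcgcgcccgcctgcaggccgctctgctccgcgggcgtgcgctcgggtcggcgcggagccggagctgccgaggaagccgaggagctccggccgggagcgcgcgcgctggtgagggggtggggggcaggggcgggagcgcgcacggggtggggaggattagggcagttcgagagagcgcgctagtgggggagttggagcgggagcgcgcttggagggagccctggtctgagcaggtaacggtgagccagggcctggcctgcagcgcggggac
In the Mcm5 window the words starting at -153 and -149 from the start site overlap and read one stretch on both strands, and in the Mcm6 window those at -110 and -106 do the same. The Mcm7 word at 17 overlaps a CCAAT sequence. Among the other words searched, CCAAT was in 54.5% of these windows and 37.4% of all, TTTGAA, a core of the cell cycle genes homology region, in 15.9% and 17.9%, and TATAAA in 6.82% and 13.6%. The windows were richer in G and C, with a median of 60.7% beside 52.7% over all windows, so the shares of these words were not compared at equal base composition. The 11 tested genes with an E2F word had median log2 changes of -2.95 in CMp against mES, -4.97 in CMa against mES and -2.03 in CMa against CMp. The 24 tested genes whose windows held none had medians of -2.08, -3.31 and -1.04 in the same order of comparisons. Lower calls in CMa against CMp numbered 9 of the 11 and 15 of the 24. The ranges of the changes in that comparison overlapped, -3.11 to -0.02 with a word and -3.52 (E2f1) to 0.90 (Dut) without. The windows of E2f1, Dut and Rfc1, without a word, and of Cdc6 and Orc1, with one, lay wholly within the gene. For these genes the sequence before the 5′ end of the gene was not searched.

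**Figure D2:**
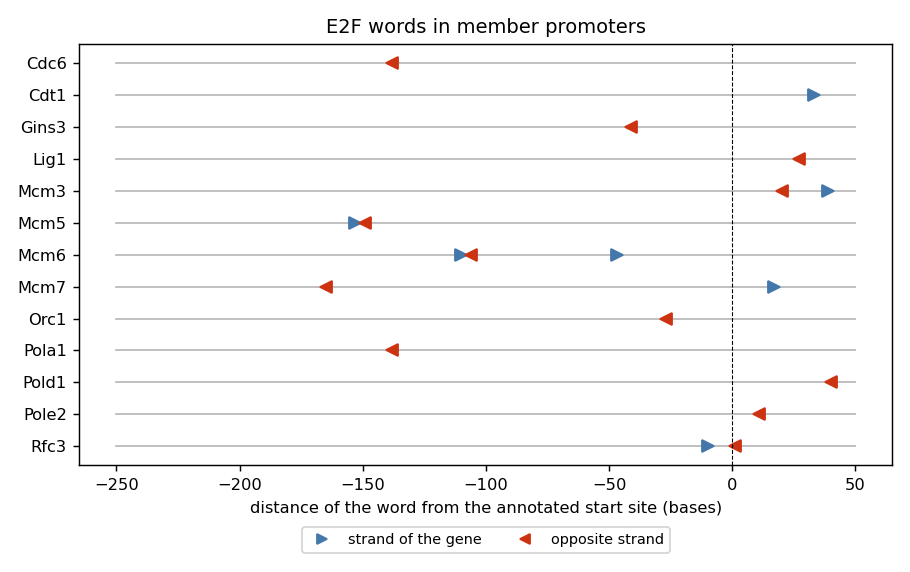
Position of each E2F word (arrowheads pointing along the strand it reads on) in the promoter windows of the 13 genes that hold one, with distance from the annotated start site in bases on the horizontal axis. Mcm3, Mcm5, Mcm7 and Rfc3 hold 2 words each and Mcm6 holds 3, and the words lie from -165 to 40.

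The genes of origin recognition and licensing act before the ring, and their changes varied widely. All 7 were lower in CMp than in mES and in CMa than in mES, with medians of -2.62 and -3.33 log2 units, and 3 (Cdc6, Cdt1 and Orc6) were lower in CMa than in CMp. Cdt1, which brings the MCM ring to origins, had levels of 11.28, 11.19 and 11.05 in mES, 8.45, 8.54 and 8.67 in CMp and 5.46, 5.92 and 5.30 in CMa. No group overlapped another, and the change was -2.62 ± 0.18, 6.16-fold lower, adjusted p = 2.86e-07 for CMp against mES, -5.61 ± 0.18, 49-fold lower, adjusted p = 7.56e-10 for CMa against mES and -2.99 ± 0.18, 7.96-fold lower, adjusted p = 5.2e-07 for CMa against CMp (log2 ± SE, limma). Cdc6, the loading ATPase, was 27.6-fold lower and Orc6 16.1-fold lower in CMa than in mES. Orc1, the largest subunit of the origin recognition complex, was at least 8.91-fold lower in CMp than in mES and undetected in both cardiomyocyte groups. Orc5, detected on all arrays of both, was 6.56-fold lower in CMp and 5.39-fold lower in CMa than in mES, and its change of 0.28 ± 0.17 between CMa and CMp was not called (adjusted p = 0.196, limma). Orc2 was at least 2.16-fold lower in CMp and 1.84-fold lower in CMa than in mES. Gmnn encodes geminin, the inhibitor of Cdt1, and its levels lay near the limit of detection at 6.26, 5.92 and 5.38 in mES, 4.39, 4.31 and 4.61 in CMp and 5.80, 4.54 and 4.89 in CMa. A single CMa value lay within the mES range, and no CMp array detected it. Its change was -1.42 ± 0.31, at least 1.85-fold lower, adjusted p = 0.00179 for CMp against mES, and -0.78 ± 0.31, 1.71-fold lower, adjusted p = 0.0425 for CMa against mES, a call lost in 11 of 17 alternative settings.

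**Figure D3:**
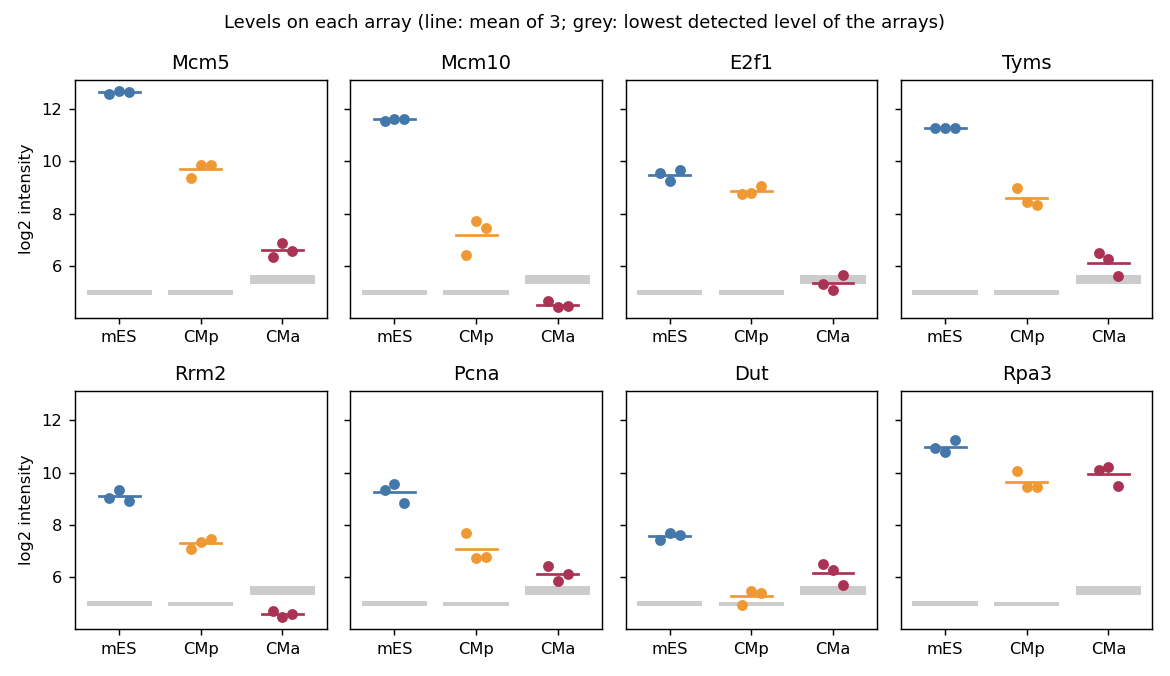
Log2 level on each array (points) and group mean (line) of Mcm5, Mcm10, E2f1, Tyms, Rrm2, Pcna, Dut and Rpa3 in mES, CMp and CMa from left to right, with a grey band for the lowest detected level of the arrays of each group. Mcm5 and Tyms step down at both stages, E2f1 drops mainly between CMp and CMa, Mcm10 and Rrm2 end below the band in CMa, and Dut is higher in CMa than in CMp.

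Helicase activation factors were lower at the first step in 7 of 7 cases and at the second in 5 of 7. Mcm10, which binds the assembling helicase, had levels of 11.56, 11.63 and 11.63 in mES, 6.40, 7.74 and 7.43 in CMp and 4.65, 4.43 and 4.47 in CMa. The CMa arrays all read below detection, and the CMp arrays lay between them and mES without overlap. It was 21.3-fold lower in CMp than in mES (adjusted p = 1.53e-07, limma), at least 69.3-fold lower in CMa than in mES (adjusted p = 3.07e-09) and at least 3.25-fold lower in CMa than in CMp (adjusted p = 2.3e-05). Cdc7, the kinase that phosphorylates MCM, was 27.7-fold lower and Cdc45, a subunit of the active helicase, 10.8-fold lower in CMa than in mES, and both were also lower in CMa than in CMp by 5.45-fold and 2.92-fold. The GINS complex, the third component of that helicase, was mixed at the second step. Gins2 was at least 2.31-fold lower in CMa than in CMp, Gins1 was 1.58-fold lower with a call lost in 12 of 17 settings, and neither Gins3 nor Gins4 was called. Gins3 had levels of 6.78, 6.75 and 6.86 in mES, 5.75, 5.44 and 5.43 in CMp and 5.47, 5.15 and 5.11 in CMa, so CMp and CMa overlapped between 5.43 and 5.47. Its change was -1.25 ± 0.16, 2.38-fold lower, adjusted p = 4.08e-05 for CMp against mES, at least 2.47-fold lower for CMa against mES, and -0.30 ± 0.16 (adjusted p = 0.158) for CMa against CMp. Gins4 changed by -1.96 ± 0.14 in CMp and -1.97 ± 0.14 in CMa against mES.

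Polymerase and primase genes make and extend the primers. Of 8 listed, 6 were tested; all 6 were lower in both comparisons with mES (medians -1.96 in CMp and -2.63 in CMa), and 4 were lower in CMa than in CMp. Pola2, the accessory subunit of polymerase alpha, had levels of 9.12, 9.36 and 8.95 in mES, 7.31, 8.22 and 7.71 in CMp and 7.72, 7.51 and 7.56 in CMa. Both cardiomyocyte groups lay below mES and overlapped each other. Its change was -1.40 ± 0.22, 2.64-fold lower, adjusted p = 0.000186 for CMp against mES, -1.55 ± 0.22, 2.93-fold lower, adjusted p = 7.72e-05 for CMa against mES and -0.15 ± 0.22 (adjusted p = 0.619) for CMa against CMp (limma). Prim2, the large primase subunit that helps make RNA primers, had levels of 9.12, 9.18 and 9.17 in mES, 6.25, 6.31 and 6.13 in CMp and 4.51, 5.13 and 5.21 in CMa. It stepped down at each stage without overlap, being 7.61-fold lower in CMp than in mES, and undetected in CMa, at least 12.7-fold lower than in mES and at least 1.67-fold lower than in CMp. Pold1, the catalytic subunit of polymerase delta, was 4.73-fold lower in CMp and 7.09-fold lower in CMa than in mES. Its second fall of -0.58 ± 0.22 (adjusted p = 0.0474) was not called in 9 of 18 settings. Pold2, its accessory subunit, was 3.22-fold lower in CMp and 5.4-fold lower in CMa than in mES, and 1.68-fold lower in CMa than in CMp. Prim1, the catalytic primase subunit, was 3.07-fold lower in CMp and at least 1.67-fold lower in CMa than in mES. Only 1 of 3 CMp arrays detected Prim1, so its fold in CMp rests in part on values below detection. Pole, the catalytic subunit of polymerase epsilon, was 5.4-fold lower in CMp and at least 8.76-fold lower in CMa than in mES. In the deposited series matrix the entry for its tested probe held other values, by up to 1.40 log2 units. The changes of Pole there were -0.15 for CMp against mES and -0.13 for CMa against mES, both still called. For CMa against CMp the change there was 0.01 and was not called.

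The sliding clamp and its loader, replication factor C, were lower in all 6 cases in both comparisons with mES, and in 4 of 6 in CMa against CMp. Pcna, the clamp that tethers polymerases to DNA, had levels of 9.35, 9.55 and 8.84 in mES, 7.71, 6.73 and 6.78 in CMp and 6.43, 5.84 and 6.11 in CMa. The CMp arrays lay below mES and the CMa arrays below CMp, the lowest CMp value being 6.73 and the highest CMa value 6.43. Its change was -2.18 ± 0.29, 4.52-fold lower, adjusted p = 4.51e-05 for CMp against mES, -3.12 ± 0.29, 8.71-fold lower, adjusted p = 2.09e-06 for CMa against mES and -0.95 ± 0.29, 1.93-fold lower, adjusted p = 0.0179 for CMa against CMp. Without the second CMa array the change between CMa and CMp was -0.80 (adjusted p = 0.07), and with the series matrix it was -0.32 (adjusted p = 0.133), neither called. Rfc5 had the largest fall of the loader, with levels of 10.99, 11.25 and 11.19 in mES, 7.02, 7.78 and 7.90 in CMp and 6.43, 6.38 and 6.51 in CMa. The groups stood apart, with CMp nearer to CMa than to mES. It was 11.9-fold lower in CMp than in mES, 26.1-fold lower in CMa than in mES and 2.19-fold lower in CMa than in CMp. The other kept Rfc5 probe changed by 0.03 in CMa against CMp and was not called. In the deposited series matrix the entry for the tested probe held other values, by up to 3.63 log2 units. The changes of Rfc5 there were -0.08 for CMp against mES and -0.03 for CMa against CMp, neither called. Rfc2 had the smallest fall against mES, with levels of 10.62, 10.97 and 10.79 in mES, 9.79, 10.20 and 10.49 in CMp and 9.23, 9.36 and 9.60 in CMa. The groups stood apart by small gaps. It was 1.55-fold lower in CMp than in mES (adjusted p = 0.015, limma), 2.64-fold lower in CMa than in mES and 1.7-fold lower in CMa than in CMp. Without the second mES array its first change was -0.55 (adjusted p = 0.0569). Rfc1 and Rfc4 were not called between CMa and CMp, at 0.27 ± 0.21 and -0.30 ± 0.23. Rfc3, detected on 2 of 3 CMp arrays and undetected in CMa, was 3.59-fold lower in CMp and at least 2.77-fold lower in CMa than in mES. Its second fall was called at adjusted p = 0.0199 (limma) but rests on values below detection. No bound could be given for it, and it was not called in 6 of 17 settings.

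Replication protein A coats single-stranded DNA in replication and in repair. Its 3 genes were lower in both comparisons with mES, and 1 of them, Rpa1, was lower in CMa than in CMp by 1.42-fold, a call lost in 8 of 18 settings. Rpa2 had levels of 9.70, 9.74 and 9.40 in mES, 7.33, 6.26 and 6.49 in CMp and 6.70, 6.64 and 5.92 in CMa. The CMp and CMa arrays overlapped widely below mES, and the change was -2.92 ± 0.29, 7.58-fold lower, adjusted p = 4.86e-06 for CMp against mES, -3.19 ± 0.29, 9.15-fold lower, adjusted p = 1.92e-06 for CMa against mES and -0.27 ± 0.29 (adjusted p = 0.471) for CMa against CMp. Rpa3 had levels of 10.96, 10.80 and 11.23 in mES, 10.07, 9.47 and 9.45 in CMp and 10.12, 10.20 and 9.50 in CMa. CMp and CMa overlapped below mES. It was 2.53-fold lower in CMp and 2.08-fold lower in CMa than in mES, and the change of 0.28 ± 0.24 between CMa and CMp was not called (adjusted p = 0.353, limma).

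Fen1 and Lig1 finish the lagging strand, Fen1 by cutting the displaced flap and Lig1 by sealing the nick, and both fell at both steps. Fen1 had levels of 11.20, 11.27 and 11.28 in mES, 9.024, 9.001 and 8.996 in CMp and 7.01, 7.15 and 7.55 in CMa. Lig1 had levels of 10.64, 10.55 and 10.50 in mES, 7.66, 8.42 and 8.36 in CMp and 5.12, 5.75 and 5.90 in CMa. For both genes each group stood clear of the next. Fen1 was 4.74-fold lower in CMp than in mES, 16.2-fold lower in CMa than in mES and 3.42-fold lower in CMa than in CMp. Lig1 was 5.33-fold lower in CMp than in mES, 31.4-fold lower in CMa than in mES and 5.9-fold lower in CMa than in CMp (adjusted p = 1.27e-05, limma). Of the 4 kept Lig1 probes, 1 was not called in CMp against mES (-0.33) and another was not called in CMa against CMp (-0.39).

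The 5 genes of deoxynucleotide supply were lower in both comparisons with mES, and 4 were lower in CMa than in CMp, with a list median of -2.41 log2 units at that step. Tyms, which makes thymidylate, had levels of 11.26, 11.27 and 11.29 in mES, 8.996, 8.450 and 8.330 in CMp and 6.50, 6.27 and 5.60 in CMa. It stepped down at each stage without overlap, with changes of -2.68 ± 0.25, 6.41-fold lower, adjusted p = 2.53e-06 for CMp against mES and -2.47 ± 0.25, 5.54-fold lower, adjusted p = 1.48e-05 for CMa against CMp, and was 35.5-fold lower in CMa than in mES. Rrm2, the S phase small subunit of ribonucleotide reductase, had levels of 9.02, 9.34 and 8.92 in mES, 7.10, 7.37 and 7.46 in CMp and 4.71, 4.48 and 4.57 in CMa. No CMa array detected it, so it was at least 12.2-fold lower in CMa than in mES and at least 3.52-fold lower than in CMp, and it was 3.45-fold lower in CMp than in mES. Rrm1, the large subunit, had levels of 10.44, 10.46 and 10.61 in mES, 9.10, 9.14 and 8.85 in CMp and 6.84, 6.99 and 6.83 in CMa. Its changes were -1.47 ± 0.15 for CMp against mES and -2.14 ± 0.15 for CMa against CMp, without overlap between groups. Tk1, the cytosolic thymidine kinase of cycling cells, had levels of 9.49, 9.42 and 9.50 in mES, 8.53, 8.17 and 8.55 in CMp and 6.25, 6.07 and 5.69 in CMa. The CMp arrays lay nearer to mES than to CMa, without overlap. It was 2.08-fold lower in CMp than in mES and 5.32-fold lower in CMa than in CMp.

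Dut went the other way at the second step. Its levels were 7.41, 7.70 and 7.62 in mES, 4.94, 5.47 and 5.40 in CMp and 6.52, 6.27 and 5.71 in CMa. Both cardiomyocyte groups lay below mES, and the CMa arrays lay above the CMp arrays. The change was -2.31 ± 0.23, 4.95-fold lower, adjusted p = 4.45e-06 for CMp against mES, -1.41 ± 0.23, 2.65-fold lower, adjusted p = 0.000183 for CMa against mES and 0.90 ± 0.23, 1.86-fold higher, adjusted p = 0.00699 for CMa against CMp. This last call was lost when arrays were scaled to a common median (0.42, adjusted p = 0.107) and when kept probes were averaged (0.51, adjusted p = 0.0712), and the other kept Dut probe changed by 0.13 and was not called.

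E2f1, an activator of S phase genes, was slightly lower in CMp than in mES and far lower in CMa. Its levels were 9.54, 9.27 and 9.68 in mES, 8.74, 8.77 and 9.05 in CMp and 5.29, 5.08 and 5.65 in CMa. The CMp arrays lay just below mES, and the CMa arrays, of which 1 detected it, lay more than 3 log2 units lower. The change was -0.64 ± 0.19, 1.56-fold lower, adjusted p = 0.0111 for CMp against mES, -4.16 ± 0.19, 17.8-fold lower, adjusted p = 8.73e-09 for CMa against mES and -3.52 ± 0.19, 11.4-fold lower, adjusted p = 2.32e-07 for CMa against CMp.

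Whether a gene fell more at the first or at the second step was tested as the difference between the change from CMp against mES and the change from CMa against CMp, in which a negative value is a larger first fall. The first fall was larger for 26 of the 43 genes, the second for 4, and 13 were not called. Of all genes tested, 34% had a called negative difference and 29.1% a called positive one. These shares count genes by the sign of the difference, whether they fell or rose at each step. The 4 were E2f1, at 2.88 ± 0.33 (adjusted p = 3.08e-05), Tk1, at 1.35 ± 0.32 (adjusted p = 0.00352), Rrm2, at 0.93 ± 0.30 (adjusted p = 0.0189), and Rrm1, at 0.67 ± 0.26 (adjusted p = 0.0443). Rrm2 was undetected on all 3 CMa arrays, so its difference rests on values below detection. With the bound in its place, its second change was at least as low as -1.82, beside a first change of -1.79. E2f1 was called so in 17 of 17 alternative settings, Tk1 in 16 of 18, Rrm2 in 9 of 17 and Rrm1 in 4 of 18. Mcm5, Cdt1, Cdc7, Lig1 and Tyms had differences between -0.21 and 0.37, none called. Among the 26, Orc1, Orc2 and Gmnn were already undetected in CMp, so their second change was not measured. A further 6 of the 26 (Mcm3, Mcm10, Gins3, Prim1, Prim2 and Rfc3) were undetected on all 3 CMa arrays, so their second change rests on values below detection. Its bounds were -1.17 for Mcm3, -1.70 for Mcm10, -0.74 for Prim2 and -0.05 for Gins3. For Prim1 and Rfc3 no bound on a second fall could be given. Over the 23 genes detected on all CMa arrays, the first step made up a median of 69.7% of the whole log2 fall between mES and CMa, ranging from 30.5% for Tk1 to 164% for Dut, which rose after it. For the 2466 genes of all kinds chosen the same way the median was 79.8%.

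Lower calls at both steps were made for 30 of the 43 genes, beside 878 of the 10800 genes tested (8.13%). For 12 of the 43 the first fall was called and the second was not, and for Dut the first fall was followed by a called rise.

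Several genes could be read on more than one probe. For 17 genes 27 further probes passed the filter, and 26 of these had the sign of the tested probe in CMp against mES, 26 in CMa against mES and 25 in CMa against CMp. The brightest probe gave the steeper median changes. Medians over the tested probes of the 17 genes and over the 27 further probes were -2.68 and -2.17 log2 units in CMp against mES. They were -4.21 and -2.78 in CMa against mES, and -2.03 and -0.54 in CMa against CMp. The change of the further probe lay above that of the tested probe for 15 of 27 in CMp against mES, and for 21 of 27 in both other comparisons. In CMa against CMp, 9 further probes of 8 genes (Mcm4, Mcm6, Prim2, Rfc2, Rfc5, Lig1, Tyms and Dut) were not called where the tested probe was. In CMp against mES this held for 1 further probe each of Rpa2 (-0.28), Lig1 (-0.33) and Tyms (-0.17).

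Mcm6 had probes that moved in opposite directions against mES. Of its 4 kept probes, 3 fell in CMp against mES, with log2 changes of -3.44, -3.51 and -3.04. The other had levels of 6.73, 6.40 and 6.32 in mES, 8.64, 9.12 and 9.33 in CMp and 6.91, 6.99 and 6.78 in CMa. Its CMp arrays were the highest, which was so for none of the other Mcm6 probes, and its CMa arrays lay just above mES. Before normalization the CMa signals, 146, 153 and 143 on the linear scale, lay below the mES signals of 246, 203 and 183, and the CMp signals were 445, 522 and 546. It changed by 2.55 ± 0.21 in CMp against mES, 0.41 in CMa against mES (not called, adjusted p = 0.0957 over all kept probes, limma) and -2.14 in CMa against CMp. Which transcript it reads cannot be told from the sources used here.

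**Figure D4:**
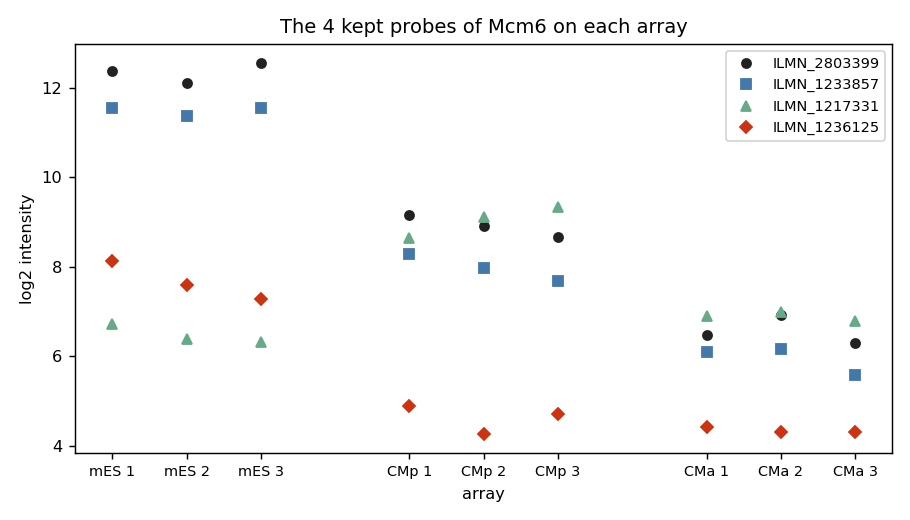
Log2 level of the 4 kept Mcm6 probes, each with its own symbol, on each of the 9 arrays. The circles, squares and diamonds are highest on the mES arrays, whereas the triangles are highest on the CMp arrays, at 8.64 to 9.33.

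Other genes of the same pathways were read from lists by function. Their counts stand beside shares over all genes of 38.8% lower and 35.4% higher in CMp against mES. The shares were 40.1% and 36.7% in CMa against mES, and 25.8% and 26.3% in CMa against CMp. Of 24 tested replisome genes outside the 45 (28 listed), 20 were lower and 1 higher in CMp against mES, 19 lower and 3 higher in CMa against mES, and 10 lower and 3 higher in CMa against CMp. Top2a, the topoisomerase that untangles replicated chromosomes, was 5.86-fold lower in CMp than in mES, 58.3-fold lower in CMa than in mES and 9.95-fold lower in CMa than in CMp. Dbf4, the activating partner of Cdc7, was 6.24-fold lower in CMp than in mES and at least 33.4-fold lower in CMa than in mES. Pold4, the small accessory subunit of polymerase delta, was 2.2-fold higher in CMp and 3.27-fold higher in CMa than in mES. Orc3 and Pole4 were also higher in CMa than in mES, at 0.82 ± 0.24 and 0.44 ± 0.16 (adjusted p = 0.029, limma), but both turned lower, at -0.01 and -0.55, when arrays were scaled to a common median, and the Pole4 call was lost without the second or the third mES array or the first or the third CMa array (adjusted p = 0.0528 to 0.101). Of 5 histone supply genes, 4 were lower in each comparison with mES and 3 in CMa against CMp. Chaf1b, a subunit of the chaperone that deposits histones behind the fork, was 36.2-fold lower and Nasp, a histone H1 and H3 chaperone, 24.6-fold lower in CMa than in mES. Asf1a, another histone chaperone, was 1.87-fold higher in CMp and 2.46-fold higher in CMa than in mES.

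**Figure D5:**
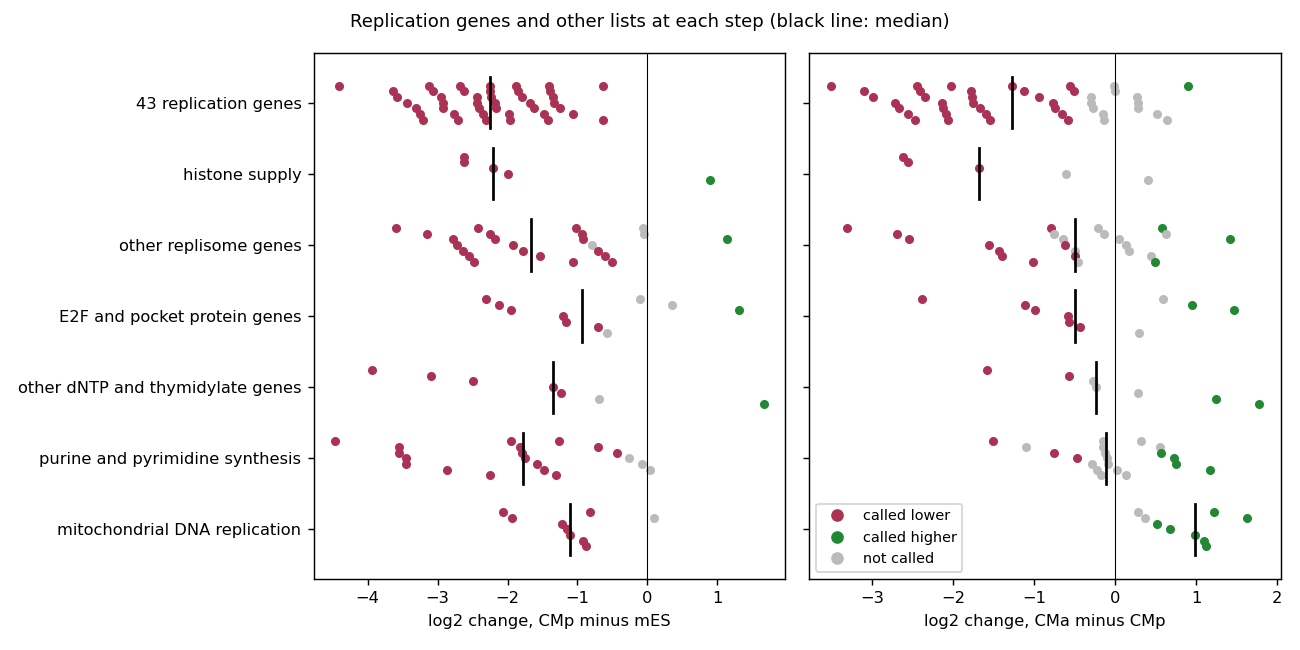
Log2 change of each tested gene (points, coloured by call) with the list median (black line) for the 43 replication genes and 6 further lists, in CMp against mES (left) and CMa against CMp (right). The mitochondrial DNA replication list lies above 0 in CMa against CMp, with a median of 0.99, where the 43 genes have a median of -1.28.

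In the rest of the deoxynucleotide pathway the small subunits of ribonucleotide reductase moved in opposite directions. Rrm2b, the p53-inducible small subunit that serves cells outside S phase, had levels of 6.04, 6.13 and 5.82 in mES, 7.86, 7.39 and 7.74 in CMp and 9.25, 9.45 and 9.62 in CMa. The 3 groups did not overlap and CMa was highest. It was 3.17-fold higher in CMp than in mES, 10.9-fold higher in CMa than in mES (adjusted p = 2.17e-08, limma) and 3.43-fold higher in CMa than in CMp (adjusted p = 1.61e-05). Of the 7 tested genes of that list (8 listed), 5 were lower and 1 higher in each comparison with mES. In CMa against CMp 2 were lower and 2 higher, close to the shares of all genes (25.8% and 26.3%). Shmt1, a serine hydroxymethyltransferase that supplies one-carbon units, was 18.5-fold lower and Dctd, which deaminates dCMP, 17-fold lower in CMa than in mES.

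Genes of purine and pyrimidine synthesis were mostly lower at the first step and mostly not called at the second. Of 20 tested (22 listed), 17 were lower in CMp than in mES and 17 in CMa than in mES, whereas 3 were lower, 4 higher and 13 not called in CMa against CMp. The list medians were -1.77, -1.70 and -0.12 log2 units in these 3 comparisons. Umps, which completes UMP synthesis, was 22-fold lower in CMp and 24.1-fold lower in CMa than in mES, with CMp values of 7.51, 5.67 and 5.60, the first array standing above the others. Adss, an adenylosuccinate synthase, was 11-fold lower in CMp and 23.6-fold lower in CMa than in mES, with CMp values of 8.19, 6.37 and 5.99. Guk1, guanylate kinase, was 2.25-fold higher in CMa than in CMp; its change of 0.46 ± 0.15 for CMa against mES turned to -0.14 with scaling to a common median and was not called without the third mES or the first CMa array (adjusted p = 0.0509 and 0.0535, limma).

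Of 10 tested E2F and pocket protein genes (12 listed), 6 were lower and 1 higher in CMp against mES, 7 lower and 2 higher in CMa against mES, and 6 lower and 2 higher in CMa against CMp. E2f2, an activator like E2f1, was 1.62-fold lower in CMp than in mES (not called without the third mES array, adjusted p = 0.058, limma) and, undetected in CMa, at least 4.21-fold lower than in mES and at least 2.59-fold lower than in CMp. E2f5, a repressor, was 7.42-fold lower and E2f6, a repressor that lacks the pocket protein binding domain, 4.8-fold higher in CMa than in mES. Rb1, the retinoblastoma protein that restrains E2F activators, changed by 0.93 ± 0.23 in CMa against mES and 0.59 ± 0.23 in CMa against CMp (adjusted p = 0.0541, limma), and the change against mES turned to -0.04 with scaling to a common median.

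Mitochondrial DNA is copied by a separate machinery, and 9 of 10 listed genes for it were tested. In CMp against mES 8 were lower (median -1.11), and in CMa against CMp 7 were higher and none lower (median 0.99). With scaling to a common median 4 were higher and 0 lower in CMa against CMp. Tfam, which packages mitochondrial DNA, changed by -2.07 ± 0.32 in CMp against mES and 1.13 ± 0.32 in CMa against CMp, the second not called with scaling to a common median or without the third CMp array (adjusted p = 0.0517 in both, limma). Dguok, the mitochondrial deoxyguanosine kinase, changed by -0.92 ± 0.24 and 1.63 ± 0.24 in the same comparisons. With the series matrix these Dguok changes were 0.058 and 0.12, and neither was called (adjusted p = 0.439 and 0.156, limma). Polg2, the accessory subunit of the mitochondrial polymerase, changed by -1.22 ± 0.16 and 0.37 ± 0.16, the second value turning to -0.12 with scaling to a common median.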

How the data were processed

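The samples were 9 total RNA preparations from mouse cells, each hybridised to an Illumina bead array. Per the labels' protocols, RNA was isolated with Trizol and labelled with biotin by an Ambion kit. Per the file headers, the deposited scanner output gives for every probe on the array (45281) a linear mean signal intensity, not normalized between arrays, and its detection p-value. A deposited matrix of log2 values, made by the authors with lumi per the submitters' processing notes, served as an alternative. Its entries for Rfc5 and Pole held other values than the scanner output.

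The signals were background-corrected with limma's nec, which uses the detection p-values, then raised by an offset of 16, quantile normalized and put on the log2 scale (limma 3.58.1 in R 4.3.3; tables were handled with data.table, version 1.17.8). A probe was kept if 3 or more of the 9 arrays detected it (p under 0.01), which 19707 did. Of these, 16962 carried a single symbol in the array annotation. The brightest kept probe of each gene was tested (10800 genes). All 9 arrays entered one linear model of group means (lmFit, eBayes), with Benjamini-Hochberg adjustment over all genes within each comparison and calls at an adjusted p under 0.05. Where a probe was undetected on all arrays of a group, each of its arrays was set to no less than its lowest detected level, and the fold is written as at least. No bound was given where this turned the direction of the change or where both groups were undetected. The number of arrays limits the precision. Methods were tested on simulated data.

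The 45 genes and all gene lists were chosen with earlier results of these data known. Values on every array are given, by a rule set with the lists, for the genes with the largest and the smallest change in CMa against mES in each role, for Mcm5, Pcna, Rrm2, Tyms and E2f1, and for genes called higher. Tk1 and Rrm1 were added after their values were seen. From each other list, up to 2 called genes with the largest change and called genes that moved against their list are named. The alternatives tried were other background corrections, normalizations, filters, offsets and probe rules, the series matrix, the replicate number as a block and leaving out each array.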

Additional observations from a re-analysis of the deposited data

How the results depend on the processing

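The falls in CMp and in CMa against mES kept their direction for the median of the 43 genes in all 18 alternative settings, whereas its size varied. The medians, first for CMp and then for CMa against mES and last for CMa against CMp, were -1.87, -2.43 and -0.70 without background correction, -2.11, -2.92 and -0.89 with an offset of 50, -2.13, -3.23 and -0.91 with the mean of kept probes, and -1.43, -1.85 and -0.39 with the series matrix. With arrays scaled to a common median they were -2.91 and -4.52 against mES. That setting moved the median of all genes to -0.59, -0.79 and -0.20 in the 3 comparisons, and higher calls made up 34.6%, 31.0% and 35.0% of all calls, beside 47.7%, 47.8% and 50.5%. With detection required on all 9 arrays, 23 of the genes were tested: 23 were lower in each comparison with mES, 15 in CMa against CMp and 15 at both steps, with medians of -3.12 for CMa against mES and -0.76 for CMa against CMp. Of these, 14 fell more at the first step and 2 at the second. A larger second fall was called for 2 genes without background correction, with common-median scaling and with an offset of 50, and for 1 with averaged probes and with the series matrix. Genes higher in CMa than in CMp numbered 0 with common-median scaling and with averaged probes, and 3 with cyclic loess. Leaving out each array in turn gave 2 to 3 genes with a larger second fall, 1 to 2 higher in CMa than in CMp, 26 to 30 lower in CMa than in CMp, and a median of -2.37 to -2.14 for CMp against mES. Common-median scaling turned Guk1 (-0.14), Orc3 (-0.0071), Pole4 (-0.55), Dguok (-0.20) and Rb1 (-0.043) in CMa against mES, Asf1a (-0.083) and Polg2 (-0.12) in CMa against CMp and Rb1 (-0.34) in CMp against mES. In CMp against mES, Pole4 was 0.025 with cyclic loess and Dguok 0.058 with the series matrix. Leaving out each array in turn, Pole4 ranged from -0.096 to 0.015 (without the third CMp array) in CMp against mES. In CMa against CMp, Rpa2 ranged from -0.49 to 0.046 (without the first CMp array), Pola2 from -0.37 to 0.089 (without the second CMp array) and Umps from -0.46 to 0.50 (without the first CMp array, and 0.18 without the third CMa array). The causes were not tested. Replicate numbers were not taken as pairs, because the labels give no shared source and the deviations of same-numbered arrays correlated unevenly, at -0.07 to 0.39, although 6 of 9 arrays correlated best with their own number. With the replicate block 43, 43 and 30 of the genes were lower, as without it, and 28 and 3 fell more at the first and at the second step. Slides are not named in the headers, so no fit with the slide as a block was made. Levels near the lowest detected level limit what can be said of the genes undetected in CMa.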
